A study of Mus musculus with 6 samples.

Results

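The 48 genes described here encode actin, tubulin and intermediate filament proteins and the proteins that assemble, cap, bundle or pull on these filaments. They were taken by gene symbol from the count table of mouse liver mRNA, which lists 29667 genes, and all 48 were found in it. Livers came from 3 Prox1-cKO mice (Alb-Cre; Prox1 f/f), in which Cre driven by the albumin promoter removes floxed Prox1 from cells that use this promoter, mainly hepatocytes. The other 3 livers came from WT mice, which carry Prox1 f/f without Cre. The sources used here give no age, sex, treatment or hour of sampling for these mice, and there is no group with Cre alone. Each library is whole liver, so cells in which Cre was not active keep their floxed alleles and add to the values. P-values rest on the variation among 6 livers, described by the study as biological replicates.

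Actin monomers polymerise into filaments that carry the cell cortex, the microvilli and, with myosin II, contraction, while tubulin dimers form microtubules and vimentin and keratins form intermediate filaments. In hepatocytes a belt of actin surrounds the bile canaliculus, and keratins 8 and 18 are the principal keratins. Blood cells, macrophages, endothelium, stellate cells and bile duct cells carry cytoskeleton proteins of their own in the same tissue. Several genes of actin and of its partners are known targets of serum response factor (SRF), which binds a 10-base motif called the CArG box.

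Libraries held 19036950 to 20537091 reads in genes in Prox1-cKO and 18066205 to 19921674 in WT. Prox1 itself was 211, 179 and 172 CPM in the Prox1-cKO livers, against 558, 728 and 836 CPM in the WT livers, so its mRNA was lower but present. CPM are the reads of a gene brought to a common library size, here scaled by TMM, a method that assumes that most genes are unchanged. TMM factors were 0.842 to 0.893 in Prox1-cKO and 1.09 to 1.19 in WT. Some libraries stood apart and touch several results. WT replicate 3 was separated from the others on the second principal component (9.87% of the variance), at −45.5 against 22.3 and 15.3 for the other WT livers, and it had the lowest of the 3 WT values for 33 of the 48 genes. WT replicate 1 had the highest of the 3 WT values for 42 of the 48 genes. Without it the members' median log2 fold change was −1.01, against −1.14 with all libraries. Prox1-cKO replicate 3 had the highest of the 3 Prox1-cKO values for 7 of 8 tubulin genes.

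Promoters are shown first, for the 5 genes in which a CArG box was found, because they are the members whose sequence carries this motif near the start. RefSeq promoters, 250 bases before to 50 bases after the start on GRCm38.p6, were matched for 43 of the 48 genes, 50 promoters in all. Actb, Stmn1, Tubb2b, S100a10 and Tubb6 had no matched promoter. The 200 bases just before the start are printed 5′ to 3′ on the strand of the gene, with the CArG box in capitals. They lie at chr11:120348496-120348695 on the minus strand for Actg1, at chr10:79988400-79988599 on the plus strand for Cnn2, at chr10:128493010-128493209 on the minus strand for Myl6, at chr2:156775264-156775463 on the plus strand for Myl9 and at chr1:74409184-74409383 on the plus strand for Vil1.
Actg1: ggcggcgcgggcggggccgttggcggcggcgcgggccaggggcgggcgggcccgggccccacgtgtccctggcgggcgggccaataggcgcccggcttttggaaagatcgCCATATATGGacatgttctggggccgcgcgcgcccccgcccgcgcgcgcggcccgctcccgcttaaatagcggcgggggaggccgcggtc
Cnn2: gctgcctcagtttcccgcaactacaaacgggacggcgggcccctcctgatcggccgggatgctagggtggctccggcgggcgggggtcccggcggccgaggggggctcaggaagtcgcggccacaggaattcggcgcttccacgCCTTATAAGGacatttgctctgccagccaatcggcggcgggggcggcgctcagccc
Myl6: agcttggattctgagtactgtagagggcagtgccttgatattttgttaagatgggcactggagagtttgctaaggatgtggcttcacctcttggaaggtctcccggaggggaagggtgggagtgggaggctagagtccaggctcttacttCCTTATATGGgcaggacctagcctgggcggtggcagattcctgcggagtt
Myl9: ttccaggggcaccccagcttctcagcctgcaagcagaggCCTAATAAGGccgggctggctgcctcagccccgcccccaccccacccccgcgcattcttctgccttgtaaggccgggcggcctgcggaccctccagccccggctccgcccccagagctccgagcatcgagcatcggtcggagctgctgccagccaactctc
Vil1: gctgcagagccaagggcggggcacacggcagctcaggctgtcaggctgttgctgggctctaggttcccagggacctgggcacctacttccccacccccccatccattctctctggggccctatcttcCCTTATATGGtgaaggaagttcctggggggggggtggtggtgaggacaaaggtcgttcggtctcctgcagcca

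Counted from the start, the first base of the box lay at −90 in Actg1, −56 in Cnn2, −50 in Myl6, −161 in Myl9 and −73 in Vil1. For Myl6 this is the downstream of 2 RefSeq starts, 877 bases apart, and the promoter of the upstream start held no such box. Both strands were searched. A CArG box was found in 5 of 50 member promoters (10%), against 535 of 32851 RefSeq mouse promoters of the same length (1.63%). The TATA box, spelled TATAAA and searched on both strands, was found in 7 of 50 (14%), against 13.6% of all promoters, and these 7 were Anxa2, Fscn1, Krt8, Myh9, Tubb2a, Tubb4b and Vim. A match is a string of letters, not a measured binding site. The genes with a CArG box were all lower in Prox1-cKO (5 of 5), and 26 of the 38 members with a promoter but no such box were lower as well, where 20.2% of all genes tested and 72.9% of the members were lower. Srf mRNA itself averaged 14.7 ± 3.26 CPM in Prox1-cKO and 16.5 ± 0.74 CPM in WT (SD, n = 3 each). Its log2 fold change of −0.17 did not pass the test (edgeR adjusted p = 0.488).

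Across the 48 genes, 35 were lower in Prox1-cKO and 1 was higher, at a Benjamini-Hochberg adjusted p under 0.05 in edgeR's quasi-likelihood test over the 14843 genes tested. All 48 passed the filter on low counts. Of all genes tested, 34.3% were called, 20.2% lower and 14.1% higher, so the share of members called lower, 72.9%, is set against 20.2%. The median log2 fold change was −1.14 over the 48 genes and −0.02 over all genes tested. Of the 35, the fall was at least 2-fold in 30 and at least 4-fold in 11. For 40 genes every Prox1-cKO value lay below every WT value, and for 1 gene above, against 26.6% and 23.3% of all genes tested. Together the 48 genes took 0.254% to 0.289% of the reads in Prox1-cKO and 0.517% to 0.774% in WT.

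In whole liver, fewer cells of a type and less RNA per cell cannot be told apart. Direction in these results rests on the scaling. Relative to TMM, library totals alone shifted the median log2 fold change of all genes by −0.41. Scaling to 16 reference genes without Actb and Tuba1a shifted it by −0.11. Scaling to Actb, the reference gene of the study's real-time PCR, shifted it by 1.02. With library totals, 45 members were lower and Rdx lost its call (all genes: 40.8% lower, 4.92% higher). With the reference genes, 40 were lower and Rdx again lost its call (22.9% lower, 8.27% higher). With Actb, 13 of 47 were lower and 9 higher (6.23% lower, 65.8% higher), and the members' median log2 fold change was −0.10, while that of all genes was positive. Under each of these scalings the median of the members lay 1.11 to 1.13 log2 units below the median of all genes. A change of scaling moves all genes by nearly the same amount, so this gap could hardly differ between scalings and is no separate check.

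**Figure D1:**
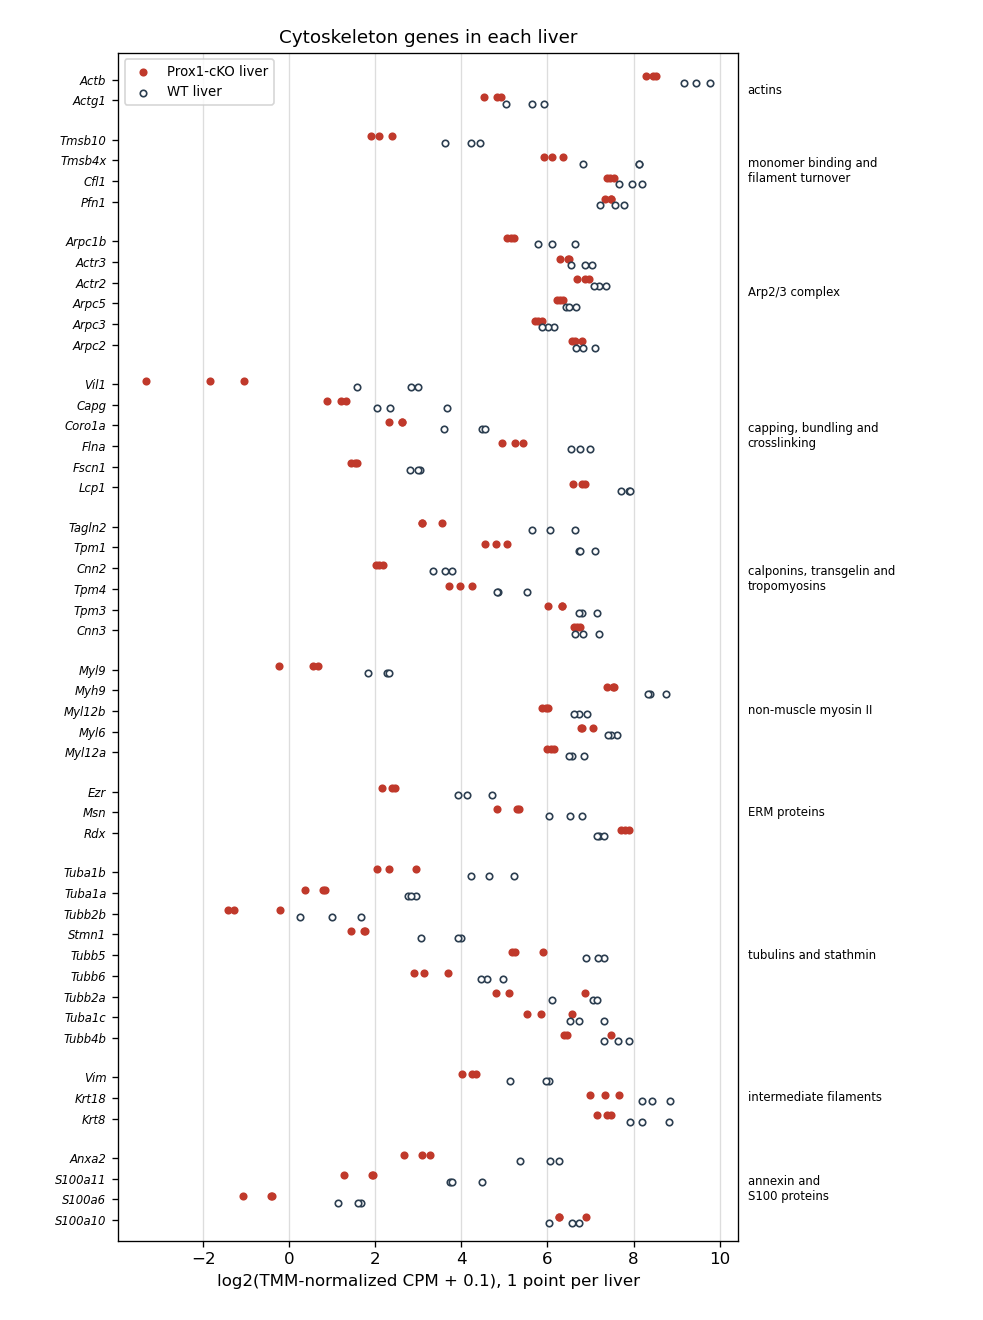
Level of each of the 48 genes in each liver, as log2 of TMM-normalized CPM plus 0.1 (a scale on which directions are relative to most genes), with filled points for Prox1-cKO and open points for WT, grouped by role. In 40 rows all 3 Prox1-cKO points lie left of all 3 WT points, and in the Rdx row they lie right of them.

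Both cytoplasmic actin genes were lower in Prox1-cKO on the TMM scale, while scaling to Actb turned Actg1 to 0.27 on the log2 scale, not called. Actb, which encodes beta-actin, was 349, 314 and 368 CPM in Prox1-cKO, against 875, 695 and 575 CPM in WT. Every WT liver lay above every Prox1-cKO liver, and the log2 fold change was −1.06 (standard error 0.20, edgeR adjusted p = 0.00567). Actb was the highest of the 48 genes per kilobase of exon in both genotypes, at 128 CPM per kb in Prox1-cKO and 267 CPM per kb in WT. Actg1, which encodes gamma-actin, was 30.3, 23.0 and 28.3 CPM in Prox1-cKO and 60.2, 49.5 and 32.5 CPM in WT. The lowest WT liver, replicate 3, came close to the highest Prox1-cKO liver, and the log2 fold change was −0.80 (standard error 0.22, edgeR adjusted p = 0.0271). The call for Actg1 was lost without WT replicate 1, without WT replicate 2 or without any one of the Prox1-cKO replicates. Actg1 shared 54.5% of its transcript, in stretches of 75 bases, with other annotated genes, mostly a pseudogene, so reads could be divided between them.

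Within each liver, the ratio of Actg1 to Actb per kilobase does not depend on the scaling. It was 0.0877, 0.0737 and 0.0775 in Prox1-cKO and 0.0693, 0.0718 and 0.0570 in WT. The Prox1-cKO ratios all lay above the WT ratios. The log2 difference was 0.27 (exact permutation test, two-sided, p = 0.1, adjusted p = 0.25 over 5 ratios), and 0.1 is the smallest p that 3 against 3 samples allow.

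The thymosin genes, whose small proteins hold actin monomers out of filaments, were both lower, while profilin and cofilin did not pass the test. Tmsb4x was 82.1, 68.3 and 60.4 CPM in Prox1-cKO, against 279.6, 277 and 114 CPM in WT, a log2 fold change of −1.67 (edgeR adjusted p = 0.00739). WT replicate 3 stood well below the other WT livers for this gene and yet above all Prox1-cKO livers. Tmsb10 was 4.12, 5.13 and 3.60 CPM in Prox1-cKO and 21.4, 18.5 and 12.2 CPM in WT, a log2 fold change of −2.02 (edgeR adjusted p = 0.00114). The ratio of Tmsb10 to Tmsb4x overlapped between the genotypes (0.0662 ± 0.0135 in Prox1-cKO, 0.0896 ± 0.0226 in WT, SD, n = 3 each). Its log2 difference was −0.43 (exact permutation test, two-sided, p = 0.2). Pfn1, which encodes profilin 1, a protein that delivers monomers to growing filament ends, came to a log2 fold change of −0.11 (standard error 0.17, edgeR adjusted p = 0.652). For Cfl1, which encodes cofilin 1, a filament-severing protein, it was −0.49 (standard error 0.17, edgeR adjusted p = 0.0543), so its call depended on the setting. Cfl1 passed with DESeq2 (adjusted p = 0.0260), limma (adjusted p = 0.0478), at least 10 counts in every library (edgeR adjusted p = 0.0442), reference-gene scaling (edgeR adjusted p = 0.0288), library totals (edgeR adjusted p = 0.00494) and without WT replicate 3 (edgeR adjusted p = 0.0146).

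Of the 6 members that encode parts of the Arp2/3 complex, which starts branched filaments, only Arpc1b was called with TMM. Library totals called all 6 lower, where 40.8% of all genes tested were lower. Scaling to Actb called the other 5 higher, where 65.8% of all genes tested were higher. Arpc1b was 35.7, 33.1 and 37.3 CPM in Prox1-cKO and 99.6, 69.2 and 54.6 CPM in WT. Its log2 fold change was −1.07 (standard error 0.21, edgeR adjusted p = 0.00724). The Prox1-cKO values were close together, and the WT values were spread more widely. Actr3, which encodes the Arp3 subunit, was 89.6, 78.6 and 90.0 CPM in Prox1-cKO and 132, 116 and 93.5 CPM in WT, a log2 fold change of −0.40 (edgeR adjusted p = 0.0779). Actr2, Arpc5, Arpc3 and Arpc2 had log2 fold changes of −0.37, −0.25, −0.23 and −0.21, none called, with edgeR adjusted p from 0.0755 to 0.327. Arpc1a encodes the alternative form of the subunit that Arpc1b encodes. It was picked after its values were seen and averaged 39.8 ± 2.61 CPM in Prox1-cKO and 39.7 ± 4.98 CPM in WT (SD, n = 3 each), with a log2 fold change of 0.00 (edgeR adjusted p = 0.984). Arpc1b shares 18.2% of its exon bases with Pdap1 on the opposite strand, and with the strand of the counting not given, reads there cannot be assigned.

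All 6 genes for capping, bundling and crosslinking proteins among the 48 were lower, with a median log2 fold change of −1.66. Vil1, which encodes villin, a bundling and severing protein of microvilli, was 0, 0.382 and 0.177 CPM in Prox1-cKO, against 7.88, 2.86 and 7.004 CPM in WT. These are 0, 7 and 3 reads in Prox1-cKO and 179, 68 and 138 reads in WT. Villin mRNA was thus near the detection limit in every Prox1-cKO liver, with a log2 fold change of −4.89 (standard error 0.69, edgeR adjusted p = 0.00200), the lowest of the 48. With 1 library left out it ranged from −5.92, without Prox1-cKO replicate 2, to −4.35, without Prox1-cKO replicate 1. Capg, for a filament-capping protein of the gelsolin family, was 1.75, 2.40 and 2.19 CPM in Prox1-cKO and 12.7, 5.002 and 4.01 CPM in WT. WT replicate 1 was well above the other WT livers, and the log2 fold change of −1.77 (standard error 0.45, edgeR adjusted p = 0.0187) was −1.09 without it (edgeR adjusted p = 0.0261) and lost its call without any one of the Prox1-cKO replicates. Coro1a (coronin 1A, abundant in leukocytes) had a log2 fold change of −1.76, Flna (filamin A, a crosslinker) −1.56, Fscn1 (fascin, a bundler of filopodia) −1.45 and Lcp1 (L-plastin, a bundler known from leukocytes) −1.09. The edgeR adjusted p of these 4 were 0.00244, 0.000763, 0.00111 and 0.00139.

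Of the 6 members for calponins, transgelin 2 and tropomyosins, which bind along actin filaments, 5 were lower. With scaling to Actb, Tagln2 and Tpm1 were still lower and Cnn3 was higher, where 6.23% of all genes tested were lower and 65.8% higher. Tagln2, for transgelin 2, was 8.42, 11.6 and 8.33 CPM in Prox1-cKO and 99.5, 66.2 and 49.99 CPM in WT. The lowest WT liver was more than 4 times the highest Prox1-cKO liver, and the log2 fold change was −2.93 (standard error 0.27, edgeR adjusted p = 0.000388). Tpm1, for tropomyosin 1, was 23.4, 27.8 and 33.1 CPM in Prox1-cKO, against 138, 107 and 109 CPM in WT, a log2 fold change of −2.07 (edgeR adjusted p = 0.000246). The other tropomyosins were lower by less: Tpm4 had a log2 fold change of −1.11 and Tpm3 one of −0.67, with edgeR adjusted p of 0.00801 and 0.0148. The call for Tpm3 was lost without Prox1-cKO replicate 3 (log2 fold change −0.56, edgeR adjusted p = 0.0502). The calponin gene Cnn2 had a log2 fold change of −1.53 (edgeR adjusted p = 0.000943). Its relative Cnn3 was 109, 103 and 98.3 CPM in Prox1-cKO and 147, 113 and 100.2 CPM in WT. The groups overlapped for Cnn3, and the log2 fold change of −0.22 was not called (edgeR adjusted p = 0.338).

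All 5 genes of non-muscle myosin II were lower, with a median log2 fold change of −0.81, which scaling to Actb turned to 0.24 with none called. Myl9, for a regulatory light chain prominent in smooth muscle, was 0.749, 1.36 and 1.48 CPM in Prox1-cKO and 4.71, 4.92 and 3.45 CPM in WT. The WT livers were all above the Prox1-cKO livers, and the log2 fold change was −1.86 (standard error 0.31, edgeR adjusted p = 0.00355). Myh9, for the heavy chain of myosin IIA, was 183, 186 and 167 CPM in Prox1-cKO, against 434, 336 and 325 CPM in WT, a log2 fold change of −1.03 (edgeR adjusted p = 0.00313). The regulatory light chain genes Myl12b and Myl12a were at −0.81 and −0.58 on the log2 scale, and the essential light chain gene Myl6 was at −0.61, with edgeR adjusted p of 0.00273, 0.0136 and 0.0131. Myl12a and Myl12b are neighbours on chromosome 17, 2.8 kb apart. Each shares exon bases with another annotated gene that also bears the name Myl12b. The call for Myl6 was lost without Prox1-cKO replicate 1 or 2, and that for Myl12a without Prox1-cKO replicate 1.

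The ERM genes, whose proteins tie actin filaments to the plasma membrane, went in opposite directions. Ezr, for ezrin, an ERM protein of epithelial microvilli, was 5.43, 5.13 and 4.37 CPM in Prox1-cKO and 26.2, 17.4 and 14.97 CPM in WT, a log2 fold change of −1.97 (edgeR adjusted p = 0.00102). Msn, for moesin, known from leukocytes and endothelium, was 40.4, 38.9 and 28.4 CPM in Prox1-cKO and 111, 91.6 and 65.1 CPM in WT, a log2 fold change of −1.31 (edgeR adjusted p = 0.00380). Both genes separated the genotypes without overlap. Rdx, for radixin, the principal ERM protein of hepatocytes, which holds a bile transporter at the canaliculus, was 239, 225 and 209.8 CPM in Prox1-cKO, against 146, 143 and 158 CPM in WT. It was the only one of the 48 genes called higher, with a log2 fold change of 0.59 (standard error 0.13, edgeR adjusted p = 0.0112). That call was lost with library totals (log2 fold change 0.18, edgeR adjusted p = 0.241) and with reference-gene scaling (0.48, edgeR adjusted p = 0.0536), so whether radixin mRNA rose depends on the scaling.

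The ratio of Rdx to Ezr, which no scaling alters, was 31.3, 31.1 and 34.0 in Prox1-cKO and 3.94, 5.82 and 7.49 in WT, per kilobase. The groups were far apart, by 2.53 log2 units (exact permutation test, two-sided, p = 0.1, adjusted p = 0.25 over 5 ratios), at the smallest p the design allows. By level per kilobase, Rdx ranked 10 among the 48 genes in Prox1-cKO and 18 in WT, while Tagln2 ranked 30 in Prox1-cKO and 17 in WT.

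**Figure D2:**
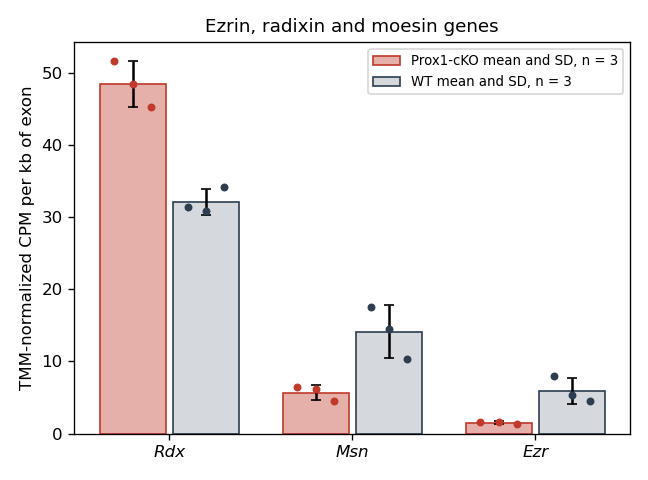
TMM-normalized CPM per kilobase of exon of the 3 ERM genes, with bars for the mean, error bars for the SD and points for the 3 livers of each genotype. Rdx averages 48.4 in Prox1-cKO and 32.1 in WT, while Msn and Ezr are lower in Prox1-cKO, at 5.67 against 14.1 and at 1.51 against 5.93.

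Of 8 tubulin genes and Stmn1, 6 were lower and 3 were not called. Tuba1b, an alpha-tubulin gene, was 3.99, 4.85 and 7.56 CPM in Prox1-cKO and 37.4, 24.7 and 18.5 CPM in WT, a log2 fold change of −2.29 (edgeR adjusted p = 0.00191). Its neighbour Tuba1a, 15.3 kb away on chromosome 15, was 1.68, 1.64 and 1.18 CPM in Prox1-cKO, against 7.66, 6.72 and 7.05 CPM in WT, a log2 fold change of −2.25 (edgeR adjusted p = 0.000441). Both alpha-tubulin genes separated the genotypes, and their ratio to each other did not (log2 difference 0.02, exact permutation test, two-sided, p = 1). The beta-tubulin genes Tubb2b, Tubb5 and Tubb6 had log2 fold changes of −2.15, −1.66 and −1.42, with edgeR adjusted p of 0.0177, 0.00157 and 0.00354. Tubb2b stood at no more than 0.768 CPM in any Prox1-cKO liver, and its call was lost without Prox1-cKO replicate 1 or 2, while without replicate 3 its log2 fold change was −2.75. Stmn1, for stathmin, which binds tubulin dimers and promotes microtubule shrinkage, had a log2 fold change of −2.10 (edgeR adjusted p = 0.00152).

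The 3 tubulin genes that were not called had their highest Prox1-cKO value in replicate 3. Tubb2a was 27.7, 34.4 and 117 CPM in Prox1-cKO and 133, 68.9 and 142 CPM in WT, so that replicate 3 lay within the WT range while the other Prox1-cKO livers lay below it. Tuba1c was 58.0, 46.1 and 94.8 CPM in Prox1-cKO and 160.2, 91.5 and 106 CPM in WT. Tubb4b was 83.5, 87.4 and 178 CPM in Prox1-cKO, against 237, 159 and 199 CPM in WT. The log2 fold changes were −0.94, −0.85 and −0.77 for Tubb2a, Tuba1c and Tubb4b, with edgeR adjusted p of 0.209, 0.0617 and 0.0874. Without Prox1-cKO replicate 3 they were −1.87, −1.19 and −1.20, with edgeR adjusted p of 0.0124, 0.0244 and 0.0104. Summed over the 8 tubulin genes, the level was 220, 220 and 472 CPM in Prox1-cKO and 766, 520 and 617 CPM in WT. Several tubulin genes share much of their sequence: 78.3% of Tuba1b, 70.4% of Tuba1a, 56.7% of Tuba1c, 43.2% of Tubb2a and 40.9% of Tubb4b occur, in stretches of 75 bases, in other genes. How such reads were counted is not given, so single tubulin values are uncertain. No such stretch of Tubb5 or Tubb6 occurs in another gene.

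**Figure D3:**
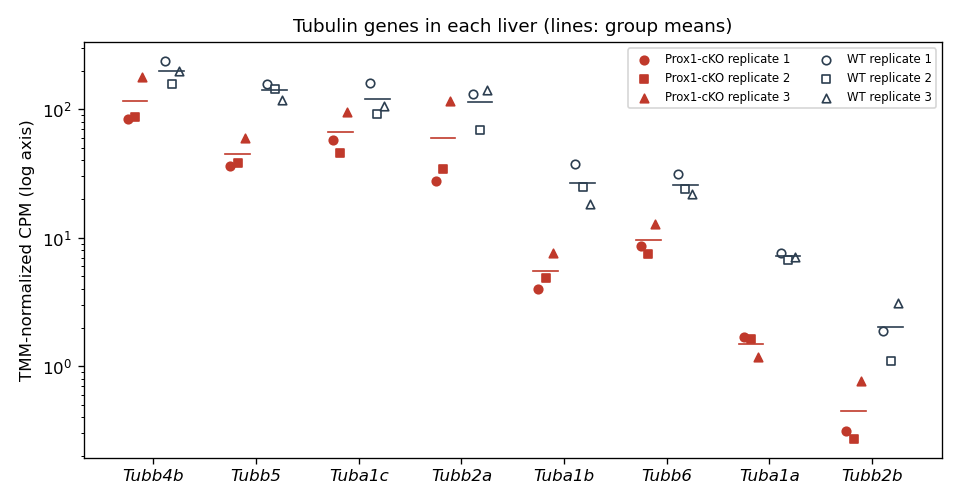
TMM-normalized CPM of the 8 tubulin genes in each liver on a log axis, with a marker shape per replicate and lines for the group means. The triangle of Prox1-cKO replicate 3 lies above the other Prox1-cKO livers for every gene but Tuba1a, and for Tubb2a at 117 CPM it lies among the WT livers.

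All 3 intermediate filament genes among the 48 were lower, and none was called once scaled to Actb. Vim, for vimentin, the filament protein of mesenchymal and blood cells, was 18.9, 20.1 and 16.2 CPM in Prox1-cKO and 65.1, 62.8 and 34.7 CPM in WT, a log2 fold change of −1.56 (edgeR adjusted p = 0.00263). Krt8 was 143, 167 and 177 CPM in Prox1-cKO and 456, 242 and 292 CPM in WT, a log2 fold change of −1.02 (edgeR adjusted p = 0.0151). Krt18, whose keratin pairs with keratin 8 in every filament, was 127, 162 and 203 CPM in Prox1-cKO and 464, 342 and 293 CPM in WT, a log2 fold change of −1.16 (edgeR adjusted p = 0.00824). Neither keratin gene overlapped between the genotypes, although the call for Krt8 was lost without Prox1-cKO replicate 1 or 2. The keratin genes lie 23.7 kb apart on chromosome 15 and ranked 2 and 3 of the 48 genes per kilobase in both genotypes, with Krt18 first of the pair. Their ratio, Krt8 to Krt18, was 0.741 ± 0.0943 in Prox1-cKO and 0.657 ± 0.120 in WT per kilobase (SD, n = 3 each), with a log2 difference of 0.18 (exact permutation test, two-sided, p = 0.5).

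The annexin and S100 genes, for proteins of the membrane and its actin, had the lowest median log2 fold change of the 10 role groups, −2.29. Of these 4 genes 3 were lower. With scaling to Actb the same 3 were lower and S100a10 was higher, where 6.23% of all genes tested were lower and 65.8% higher. Anxa2, for annexin A2, was 6.30, 8.45 and 9.51 CPM in Prox1-cKO and 77.6, 41.1 and 66.1 CPM in WT, a log2 fold change of −2.93 (standard error 0.27, edgeR adjusted p = 0.000345). S100a11 was 2.31, 3.76 and 3.72 CPM in Prox1-cKO, against 22.3, 13.2 and 13.6 CPM in WT, a log2 fold change of −2.32 (edgeR adjusted p = 0.00113). The lowest WT liver was thus several times the highest Prox1-cKO liver for both genes, and S100a6 had a log2 fold change of −2.25 (edgeR adjusted p = 0.00219). S100a10 encodes the S100 protein that binds annexin A2 in a complex. It was 76.6, 77.6 and 119 CPM in Prox1-cKO and 106, 66.0 and 94.8 CPM in WT. These ranges overlapped, with a log2 fold change of 0.03 (standard error 0.23, edgeR adjusted p = 0.924), although S100a10 and S100a11 lie 28.8 kb apart on chromosome 3.

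**Figure D4:**
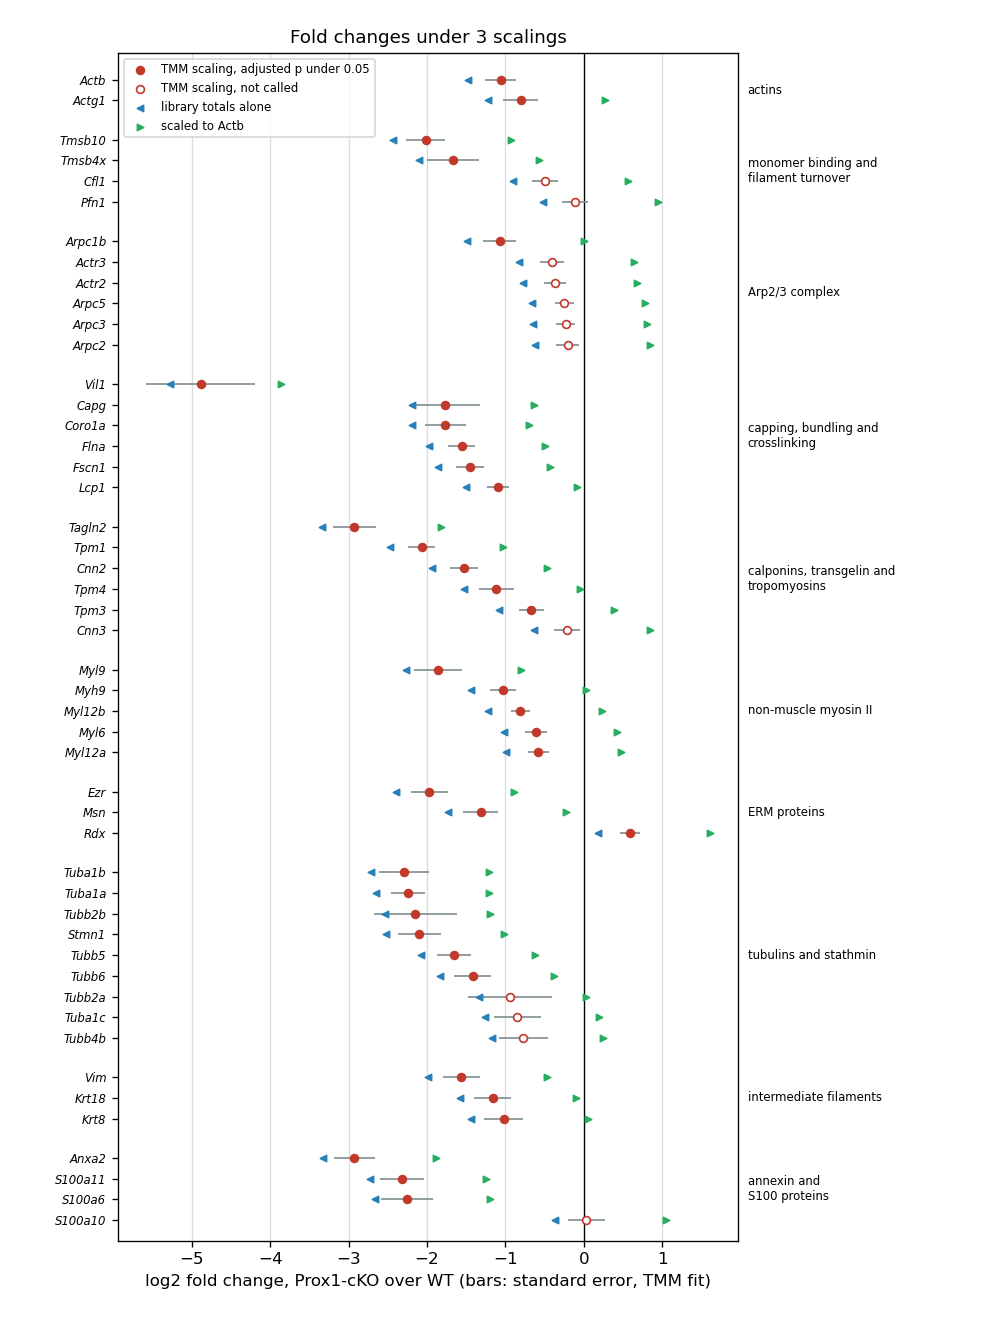
Log2 fold change of the 48 genes, Prox1-cKO over WT, with TMM scaling (circles, bars for the standard error), library totals (left-pointing triangles) and scaling to Actb (right-pointing triangles). The other scalings move the genes by similar amounts, so their order is much the same and 0 falls elsewhere: Rdx lies at 0.59, 0.18 and 1.61, and Tagln2 at −2.93, −3.34 and −1.82.

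Left out one at a time, the 6 livers gave 30 to 38 called members (20.7% to 39.6% of all genes tested), and 29 members were called in all 6 fits. Only Pfn1 and S100a10 changed sign in any of them. Of the 48 genes, 24 share no stretch of 75 bases with another annotated gene. Of these, 18 were lower and 1 higher, where 20.2% of all genes tested were lower and 14.1% higher. Their median log2 fold change was −1.56.

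Actb belongs to a set of genes in common use as references in real-time PCR, of which 16 are reported. Of these 16, 3 were lower and 1 higher in Prox1-cKO, against 20.2% and 14.1% of all genes tested. Tuba1a and Actb were lower by the most, at −2.25 and −1.06 on the log2 scale, followed by Ywhaz at −0.41. Hprt was higher, at 0.74. The 12 that were not called lay between −0.46 for Rpl13a and 0.44 for Eef1a1, and among them Sdha was 0.01, Rplp0 0.03, Polr2a 0.05, Tbp 0.14, Gusb −0.16, B2m −0.22, Ppia −0.30, Gapdh 0.32, Pgk1 0.33 and Tfrc 0.33. With library totals, 7 of the 16 were lower, where 40.8% of all genes tested were lower, and Hprt was no longer called.

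**Figure D5:**
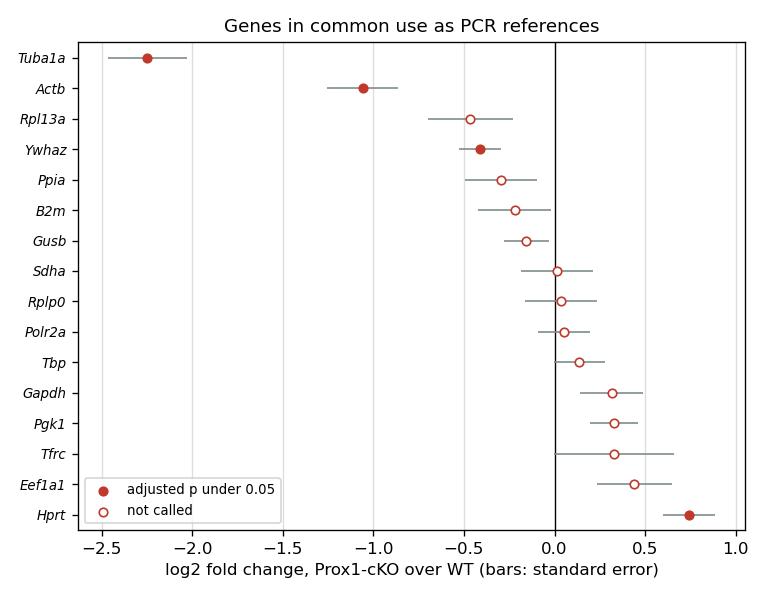
Log2 fold change, Prox1-cKO over WT, of 16 genes in common use as PCR references, with bars for the standard error and filled points where edgeR's adjusted p was under 0.05. Tuba1a at −2.25 and Actb at −1.06 lie left of all others, and Hprt at 0.74 lies furthest right.

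Beyond the 48 genes, 192 other cytoskeleton genes were tested, of 220 listed. Of these, 73 (38.0%) were lower and 11 (5.73%) higher, against 20.2% and 14.1% of all genes tested. Their median log2 fold change was −0.31. In the list of actin assembly, 19 of 41 were lower and 1 higher. They included Fmnl1, a leukocyte formin (log2 fold change −2.89), Cotl1, a coactosin-like actin-binding protein (−2.19), Evl of the Ena/VASP family (−1.47) and Hcls1, the leukocyte relative of cortactin (−1.40). Of actomyosin, crosslinker and adhesion genes, 12 of 31 were lower and 5 higher. Pls1, for plastin 1, a bundling protein of microvilli, was the lowest named, at 1.40 ± 0.552 CPM in Prox1-cKO and 41.0 ± 16.7 CPM in WT (SD, n = 3 each), and its log2 fold change was −4.86 (edgeR adjusted p = 0.000232). Acta2, the smooth muscle actin of activated stellate cells, had −2.38, Tes, for testin of focal adhesions, −2.19, and Iqgap1, for a scaffold that crosslinks actin, −1.68. The 5 higher genes of this list, named after their values were seen, were Mylk (1.21), Tln2 (0.73), Cald1 (0.65), Iqgap2 (0.65) and Vcl (0.57).

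Of cell cortex and spectrin genes, 8 of 18 were lower and 2 higher. This count and those of the lists below stand against 20.2% of all genes tested lower and 14.1% higher. Called genes of at least 5 CPM included Epb41l3, a band 4.1 protein (−4.14), Myo6 (−0.90) and Epb41l2 (−0.79). Of other tubulin and microtubule genes, 10 of 41 were lower and 2 higher, against 20.2% and 14.1% of all genes tested, with a median log2 fold change of −0.14, and Tuba8 (−2.36), Dynll1 (−1.47), Map4 (−0.91) and Map1s (−0.70) were the lowest named. Other intermediate filament and plakin genes had 4 of 16 lower and 1 higher, not far from the shares of all genes tested. Nes for nestin was at −2.07, Lmnb1 for lamin B1 at −1.06 and Dsp for desmoplakin at 0.66. Of other annexin and S100 genes, 9 of 16 were lower. S100b had 2, 1 and 1 reads in Prox1-cKO and 300, 232 and 348 reads in WT, and its log2 fold change was −7.32, while those of Anxa5, Anxa3 and Anxa1 were −1.78, −1.39 and −1.05. Of small GTPase, kinase and SRF genes, 11 of 29 were lower, with Pak1 at −2.13, Arhgdia at −1.53, Rac2 at −1.52 and Arhgdib at −1.46. Rhoa, Rac1 and Cdc42 themselves, named after their values were seen, had log2 fold changes of −0.11, 0.07 and −0.39 and were not called.

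Markers of the cell types in the tissue moved as well. The counts below are with TMM, where 20.2% of all genes tested were lower and 14.1% higher. Summed levels cover every listed marker in the count table, also those that the filter on low counts removed. They thus cover 17 lymphocyte, dendritic cell and neutrophil, 14 stellate cell and fibroblast, 12 bile duct and 7 red blood cell markers. With library totals 9 hepatocyte markers were higher (4.92% of all genes tested). Lower were then 6 endothelial, 13 macrophage, 13 lymphocyte, dendritic cell and neutrophil, and 9 stellate cell and fibroblast markers (40.8% of all genes tested). Of 17 hepatocyte markers, 12 were higher, and their summed level was 149900 to 183300 CPM in Prox1-cKO and 92740 to 99980 CPM in WT. Tat and Cyp2e1 rose most, at 2.25 and 2.09 on the log2 scale. Of 13 macrophage markers 11 were lower, with a summed level of 619 to 835 CPM in Prox1-cKO and 718 to 1784 CPM in WT, and Marco and Cd68 were at −2.11 and −1.41. Of 15 lymphocyte, dendritic cell and neutrophil markers 8 were lower, with 28.4 to 39.6 CPM in Prox1-cKO and 55.4 to 114 CPM in WT, and Itgax and Ptprc were at −2.98 and −1.24. Ly6g was at 0 in WT. Of 13 stellate cell and fibroblast markers 9 were lower, with 379.5 to 443 CPM in Prox1-cKO and 591 to 707 CPM in WT, and Col1a1 and Col3a1 were at −3.37 and −3.26. Of 10 bile duct markers 7 were lower, with 57.9 to 88.9 CPM in Prox1-cKO and 163 to 237 CPM in WT, and Spp1 was at −2.11. Of 13 endothelial markers 1 was lower, Cdh5 at −0.75, with 565 to 927 CPM in Prox1-cKO and 680 to 952 CPM in WT. Of 14 markers of dividing cells 12 were lower, with 55.2 to 61.1 CPM in Prox1-cKO and 116 to 247 CPM in WT, and Cdc20 and Ccnb1 were at −4.79 and −3.34. Of 5 red blood cell markers 1 was called, Alas2 at 1.14, with 208 to 245 CPM in Prox1-cKO and 90.2 to 325 CPM in WT. The part of these cell types in the lower levels of the 48 genes was not tested.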

How the data were processed

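Poly(A)-selected liver mRNA of 3 Prox1-cKO and 3 WT mice was analysed, with each library as 1 sample. The authors deposited a table of whole read counts per gene, made with HISAT2 2.1.0 and HTSeq per the labels, which also name DESeq and the human build GRCh38. Of its 29667 identifiers 29605 are in the mouse annotation GENCODE M21 (GRCm38). The deposited table named FPKM holds CPM, each value equal to the read count over the library total within 0.01 reads, in 100% of values. The sources used here give neither strand nor filters.

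The count test was edgeR 4.0.16 under R 4.3.3 (filterByExpr, TMM, quasi-likelihood test on genotype, Benjamini-Hochberg over 14843 genes, called at adjusted p under 0.05). Ratios were compared by exact permutation tests. Alternatives were RLE scaling, library totals, scaling to Actb or to other reference genes, other filters, DESeq2 1.42.0, limma 3.58.1 on log2 of CPM plus 1, a length offset, a replicate block, a 2-fold minimum and each library left out; the test on reads recovered from the CPM table, which called 36 members, was chosen after seeing the data. The members and lists were chosen with earlier results of these data known. Per-sample values are given for Actb, Actg1, Vim, Krt8 and Krt18, the 2 largest fold changes of each role and members departing from their group, and the other lists by up to 4 called genes (2 for markers) with at least 5 CPM. Promoters were taken from RefSeq. A planned protein comparison and the GC offset were not used here. The self-test ran on simulated data. Some genes of the lists are not reported here. Figures were drawn with matplotlib 3.10.9.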

Additional observations from a re-analysis of the deposited data

How the results depend on the processing

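Scaling to Actb turned the direction of 19 members: log2 fold changes became 0.27 for Actg1, 0.95 for Pfn1, 0.57 for Cfl1, 0.0055 for Arpc1b, 0.85 for Arpc2, 0.81 for Arpc3, 0.78 for Arpc5, 0.68 for Actr2, 0.65 for Actr3, 0.85 for Cnn3, 0.39 for Tpm3, 0.42 for Myl6, 0.47 for Myl12a, 0.24 for Myl12b, 0.028 for Myh9, 0.19 for Tuba1c, 0.025 for Tubb2a, 0.25 for Tubb4b and 0.048 for Krt8. Under it 9 members were called higher and 13 lower, with a median of −0.098, and by construction Actb had no value. With library totals 0 were higher and the median was −1.55, and 0 were higher with reference-gene scaling and with a 2-fold minimum. S100a10, at 0.03 and between −0.20 and 0.18 with 1 library left out, became −0.37 with library totals, −0.077 with reference genes, −0.012 with at least 10 counts in every library, −0.0073 with the length offset, −0.14 without WT replicate 2 and −0.20 without Prox1-cKO replicate 3. Pfn1 became 0.029 without WT replicate 1. The turns under Actb follow from its construction, which raised each of the 19 values by 0.97 to 1.08. The cause of those of S100a10 and Pfn1 with other settings was not tested.

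Each library left out in turn gave 29 to 37 members lower and 1 higher, with medians of −1.29 to −1.01. The log2 differences of the ratios ranged over 0.17 to 0.34 for Actg1 to Actb, −0.58 to −0.23 for Tmsb10 to Tmsb4x, 2.28 to 2.74 for Rdx to Ezr, 0.021 to 0.29 for Krt8 to Krt18 and −0.27 to 0.44 for Tuba1a to Tuba1b. The last was −0.20 without WT replicate 1, −0.27 without Prox1-cKO replicate 1 and −0.11 without Prox1-cKO replicate 2. DESeq2, RLE scaling, limma, no filter and the length offset gave 36 to 39 called members (20% to 36.9% of all genes tested), and at least 10 counts in every library gave 34, since Vil1, Tubb2b and S100a6 were then not tested.

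The labels give both genotypes the same replicate numbers, with no statement that a number pairs animals. Deviations from the group means correlated at 0.148, 0.0561 and 0.155 between libraries of the same number. Each Prox1-cKO library correlated best with the WT library of its own number. WT replicate 2 correlated best with Prox1-cKO replicate 1, at 0.0589. Correlations this weak cannot decide whether the numbers pair animals. With the replicate block 39 members were called in place of 36 (33.8% of all genes tested in place of 34.3%), the added ones being Tubb4b, Tubb2a and Tuba1c. Low read numbers limit Vil1, Tubb2b, S100a6 and Myl9.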
